A study of Mus musculus with 12 samples.

Results

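Zbtb7a encodes LRF, a transcription factor of the BTB zinc finger (ZBTB) family, and the genes described here are Zbtb7a and 9 relatives: Zbtb7b, Zbtb16, Zbtb32, Zbtb17, Zbtb1, Zbtb20, Zbtb10, Patz1 and Bcl6. They were taken by name, with earlier results of these data known, and are 10 of the 26629 genes with at least 1 count in the deposited tables. The question they address is whether relatives of LRF were expressed at other levels where LRF was deleted, and how they changed between precursor and descendant T cells. The 12 RNA sequencing libraries fall into 4 groups of 3, all from C57BL/6 mice whose Zbtb7a alleles are floxed (lrffl/fl), and each was made from 40000 sorted cells.

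KO IELp (Cd4 Cre+ lrffl/fl) and control IELp (Cd4 Cre- lrffl/fl) are thymic precursors of intraepithelial lymphocytes, sorted as PD-1hi CD44- cells that were CD5hi, CD122+ and H-2Kb+ among TCRb+ cells lacking CD4 and CD8a. KO CD8aa splenocytes (Cd4 Cre+ lrffl/fl) came from spleen and control CD8aa IEL (Cd4 Cre- lrffl/fl) from the gut epithelium, and both were sorted on CD45, TCRb and CD8a with CD4 and CD8b excluded. The Cd4 Cre transgene deletes floxed sequence once developing T cells express Cd4, so other cell types keep the gene, and the controls carry the floxed alleles without the transgene. KO and control IELp thus differ in genotype (with the Cre itself). The comparison of KO CD8aa splenocytes with control CD8aa IEL changes genotype and tissue at once, and the comparisons of CD8aa cells with IELp change stage and tissue at once, so that these cannot be told apart. Ages are not given, nor is it stated that the 3 libraries of a group came from separate mice, so p-values measure the spread between these libraries only.

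BTB zinc finger factors bind DNA through C-terminal zinc fingers, and use the N-terminal BTB domain to pair with each other and to recruit corepressors such as NCOR, BCOR and histone deacetylases. Several direct T cell fates: Zbtb7b encodes ThPOK, the CD4 lineage factor that works redundantly with LRF in CD4 T cells, Zbtb16 encodes PLZF of innate-like T cells, and Patz1 encodes MAZR, which represses Zbtb7b and Cd8 genes in thymocytes. Bcl6 directs follicular helper T cells, Zbtb17 encodes MIZ-1, needed by early lymphoid progenitors, and Zbtb1 is needed for lymphoid development.

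RefSeq promoter windows (GRCm38.p6, 250 bases before to 50 after a start) were matched for 8 of the 10 genes, giving 13 windows, with Zbtb16 and Zbtb10 unmatched. The windows of Zbtb7a and of its relative Zbtb7b are shown because these were the 2 members that rose in control CD8aa IEL against control IELp. Of the members that fell there, only the 1 Patz1 window that holds the motif marked below is shown. The other Patz1 window and those of Bcl6, which also fell, are not shown. Capitals mark GATAA on either strand (TTATC on the strand shown), the core letters bound by GATA factors such as GATA3, which acts upstream of Zbtb7b. The Zbtb7a window lies at chr10:81136021-81136320 (plus strand), the Zbtb7b windows at chr3:89387622-89387921 and chr3:89393329-89393628 (minus strand, given in that order), and the Patz1 window at chr11:3288881-3289180 (plus strand).
Zbtb7a promoter: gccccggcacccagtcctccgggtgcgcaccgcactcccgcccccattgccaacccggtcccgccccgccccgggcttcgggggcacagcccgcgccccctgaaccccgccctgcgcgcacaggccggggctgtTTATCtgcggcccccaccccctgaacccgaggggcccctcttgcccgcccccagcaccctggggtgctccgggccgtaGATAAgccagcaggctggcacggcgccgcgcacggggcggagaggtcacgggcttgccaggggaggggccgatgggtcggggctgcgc
Zbtb7b promoter: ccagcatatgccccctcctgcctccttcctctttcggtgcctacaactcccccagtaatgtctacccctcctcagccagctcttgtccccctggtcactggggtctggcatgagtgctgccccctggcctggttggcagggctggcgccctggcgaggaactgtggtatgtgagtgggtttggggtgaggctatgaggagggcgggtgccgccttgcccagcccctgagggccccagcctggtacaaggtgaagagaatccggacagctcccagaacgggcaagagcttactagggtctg
Zbtb7b promoter: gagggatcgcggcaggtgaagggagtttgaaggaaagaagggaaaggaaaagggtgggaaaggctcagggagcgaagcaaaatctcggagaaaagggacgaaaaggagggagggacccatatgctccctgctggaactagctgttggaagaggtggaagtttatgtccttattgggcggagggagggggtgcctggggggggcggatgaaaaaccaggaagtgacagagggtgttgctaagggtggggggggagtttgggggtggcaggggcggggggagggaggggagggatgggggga
Patz1 promoter: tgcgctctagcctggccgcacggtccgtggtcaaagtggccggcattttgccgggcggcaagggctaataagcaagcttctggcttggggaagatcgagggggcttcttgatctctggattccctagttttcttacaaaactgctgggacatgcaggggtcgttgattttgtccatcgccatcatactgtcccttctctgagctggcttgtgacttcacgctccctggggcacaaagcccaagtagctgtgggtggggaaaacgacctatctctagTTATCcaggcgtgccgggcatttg
GATAA occurred at 2 places in the Zbtb7a window, at 1 in this Patz1 window and at 0 in both Zbtb7b windows, against 25.4% of all 32851 promoter windows (8347) with at least 1 match. Of the other windows, the 1 of Zbtb20 held the motif once, and those of Zbtb32, Zbtb17, Zbtb1, Bcl6 and the second start of Patz1 held none. The Zbtb7a window was 77.7% G and C, against a median of 52.7% over all windows. A match is a run of letters and was not tested as a site.

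Libraries held 13432598 to 19947734 counts over genes. Levels are given as CPM, each gene's share of all gene counts of its library scaled to a common total, and fold changes come from edgeR with trimmed-mean (TMM) scaling between libraries, the first-named group over the second. A gene is said to have risen or fallen where its adjusted p was under 0.05 over all genes tested in that comparison. T cell genes were high in all groups, with a summed level of Cd3d, Cd3e, Cd3g, Cd247, Trac and Lck of 5022 CPM or more in each library. Cd8a followed the sorts, with means of 838 CPM in KO CD8aa splenocytes, 2508 CPM in control CD8aa IEL, 46.5 CPM in KO IELp and 18.7 CPM in control IELp.

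Deletion was first checked on Zbtb7a itself (GRCm38, chr10:81135220-81152995, plus strand), and its RNA was lower but present in both KO groups. It stood at 50.8, 43.8 and 42.0 CPM in the 3 KO IELp libraries, against 77.0, 68.5 and 80.7 CPM in the 3 control IELp libraries. All KO values lay below all control values, and the log2 fold change was -0.71 (SE 0.10, edgeR adjusted p = 1.56e-04), a level 1.63 times lower. KO CD8aa splenocytes held 61.4, 59.1 and 63.4 CPM, against 114, 119 and 101 CPM in control CD8aa IEL. Again the groups did not overlap, with a log2 fold change of -0.98 (SE 0.08, edgeR adjusted p = 4.16e-06), or 1.98 times lower. Genotype and tissue both differ between these CD8aa groups, so the gap cannot be assigned to the deletion. The tables count reads over the whole gene, and which exons the floxed alleles remove is not stated, so the source of the remaining reads was not tested. In sorted bulk samples fewer cells with a transcript and less of it per cell cannot be told apart.

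In KO IELp, where genotype alone was changed, 1 of the 9 genes tested (Zbtb7a and 8 relatives) rose, 2 fell and 6 were not called, beside 13.1% of all 14629 tested genes called in either direction (6.48% higher, 6.58% lower). The riser was Zbtb10, known in human cells as a repressor of genes for SP family factors. It stood at 14.1, 14.8 and 14.5 CPM in KO IELp and at 7.71, 8.47 and 7.07 CPM in control IELp. The groups lay well apart, with a log2 fold change of 0.92 (SE 0.14, edgeR adjusted p = 5.34e-04), or 1.89 times higher. Beside Zbtb7a, the other gene that fell was Zbtb16, at 2.90, 5.60 and 4.38 CPM in KO IELp and 7.37, 7.11 and 7.14 CPM in control IELp. All 3 KO libraries were below the controls but spread widely among themselves, and the log2 fold change was -0.72 (SE 0.23, edgeR adjusted p = 0.0495). The call ended under 4 of 7 other settings (adjusted p = 0.0506 to 0.0799), and when any library other than KO IELp replicate 2 was left out (edgeR adjusted p = 0.0746 to 0.168). PLZF is a defining factor of invariant T cells. A list of genes of such cells summed to 215 to 233 CPM in KO IELp and 308 to 331 CPM in control IELp. Most of it was Slamf6, at 217 CPM in KO IELp and 304 CPM in control IELp. Klrb1c, Il4 and Il17rb averaged 0.598 to 2.69 CPM in KO IELp and 1.32 to 7.80 CPM in control IELp. Trav11 and Trav11d were at 0 in both. B cell markers summed to 550.2 to 579 CPM in KO IELp and 431 to 444 CPM in control IELp, with Ms4a1 at 0 in both. Most of that sum was Ighm, at 548 CPM in KO IELp and 417 CPM in control IELp. Cd79b (17.7 CPM in KO IELp and 19.8 CPM in control IELp) and Cd79a (0.652 and 0.684 CPM in the same groups) were not higher in KO IELp. The part of either list in these calls was not tested.

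Zbtb7b, the relative known to share tasks with LRF in CD4 T cells, was low in both precursor groups. It stood at 1.58, 2.77 and 1.42 CPM in KO IELp and at 2.46, 2.70 and 0.957 CPM in control IELp. The groups overlapped, with 97 counts in KO IELp and 95 in control IELp. The 95% interval of the log2 fold change ran from -0.93 to 0.78, so changes in either direction within these bounds are compatible with the data. Patz1 stood at 138, 130.5 and 129 CPM in KO IELp, above the 119.7, 119.9 and 114 CPM of control IELp, yet its log2 fold change of 0.19 (SE 0.06) had an edgeR adjusted p of 0.0567. Zbtb1, too, did not overlap between the groups, with 178, 177 and 183 CPM in KO IELp, against 170.4, 166 and 166 CPM in control IELp, and its log2 fold change of 0.12 (SE 0.06) had an edgeR adjusted p of 0.180. Both shifts were small and neither was called, although DESeq2 called the one of Patz1 (adjusted p = 0.0351).

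The other 3 tested relatives had overlapping groups in the precursors. Zbtb17 averaged 94.6 ± 7.21 CPM in KO IELp and 86.9 ± 7.89 CPM in control IELp (SD, n = 3 each), and the 95% interval of its log2 fold change was -0.04 to 0.33. Zbtb20, a factor of memory T cells and plasma cells, averaged 58.8 ± 2.58 CPM in KO IELp and 56.4 ± 3.42 CPM in control IELp, with an interval of -0.10 to 0.26. Bcl6 averaged 40.3 ± 2.51 CPM in KO IELp and 40.0 ± 8.19 CPM in control IELp, with an interval of -0.23 to 0.31. Zbtb32 (also called ROG, a repressor of GATA3 activity) did not pass the filter on low counts in any comparison. Its libraries held 5, 4 and 11 counts in KO IELp, 5, 23 and 3 in control IELp, 2, 10 and 7 in KO CD8aa splenocytes and 4, 8 and 3 in control CD8aa IEL, too few to place it.

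Summed over the 9 relatives without Zbtb7a, KO IELp held 527 ± 5.64 CPM and control IELp 486 ± 5.15 CPM (SD, n = 3 each). The ranges, 520.8 to 532.0 CPM in KO IELp and 480.6 to 490.9 CPM in control IELp, did not overlap. The members with the widest gaps between the group means in CPM were Patz1, Zbtb1 and Zbtb17, none of which was called on its own. A sum of CPM takes no account of gene length or of protein. With Zbtb7a included the sums were 572 ± 1.67 CPM in KO IELp and 561 ± 6.50 CPM in control IELp, and no test was made on either sum.

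**Figure D1:**
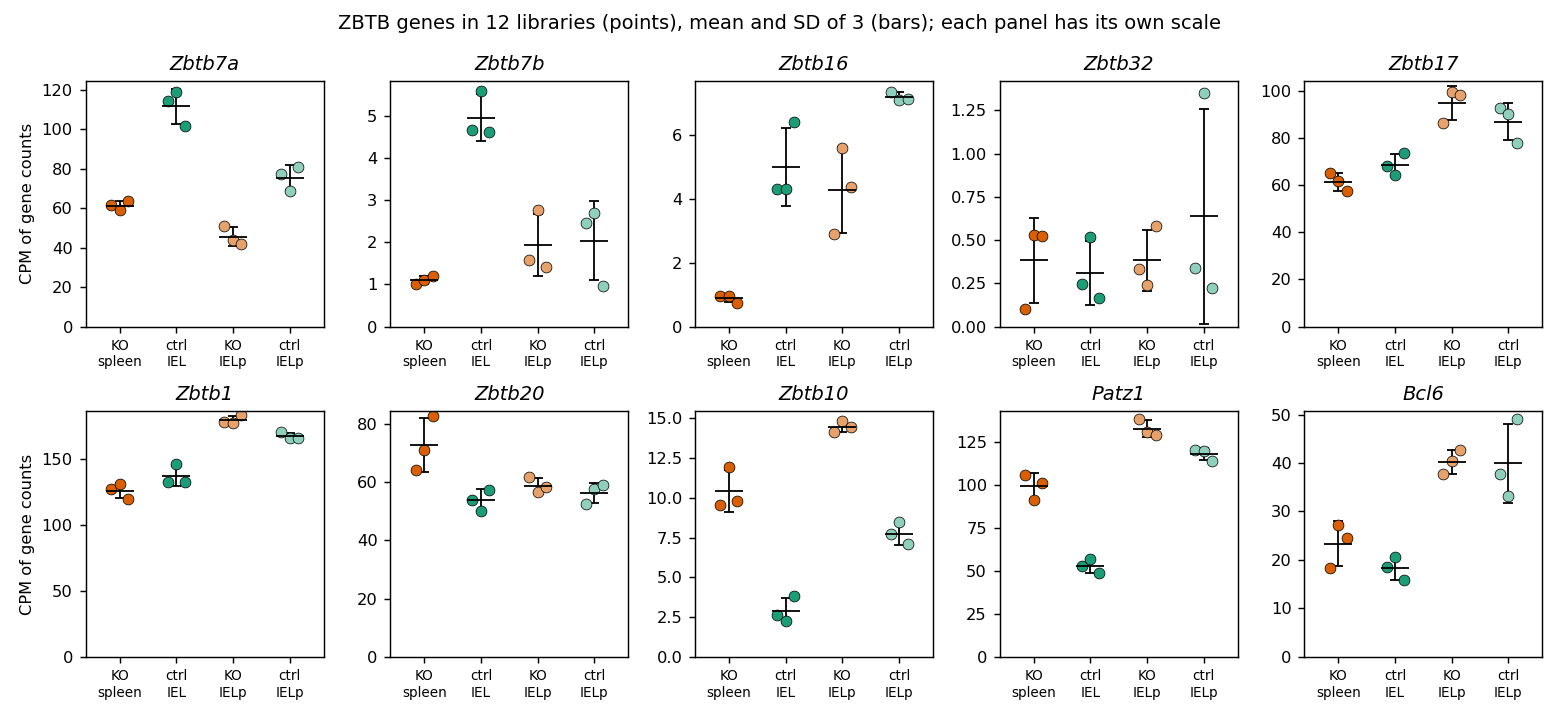
Level of each of the 10 ZBTB genes (CPM, linear axis from 0, a separate scale in each panel) in the 12 libraries (points) with the mean and SD of each group of 3 (bars). In KO IELp Zbtb10 lies between 14.1 and 14.8 CPM, above the control IELp libraries. Zbtb7a lies lower in KO IELp than in control IELp, and lower in KO CD8aa splenocytes than in control CD8aa IEL, which are of another tissue.

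Between precursors and gut cells of control genotype, Zbtb7a and Zbtb7b rose while Patz1, Bcl6 and Zbtb10 fell. In this comparison 64.8% of 14878 tested genes were called (31.9% higher, 32.9% lower), so the 5 of 9 tested members called are a share near that background. Zbtb7a stood at the 114, 119 and 101 CPM of control CD8aa IEL given above, against 77.0, 68.5 and 80.7 CPM in control IELp, a log2 fold change of 0.79 (SE 0.09, edgeR adjusted p = 2.21e-05). Zbtb7b stood at 4.67, 5.60 and 4.62 CPM in control CD8aa IEL, against 2.46, 2.70 and 0.957 CPM in control IELp. No CD8aa IEL library overlapped the precursors, and the log2 fold change was 1.49 (SE 0.34, edgeR adjusted p = 0.00277), or 2.81 times higher, although the level remained low.

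Patz1, which in other T cells restrains Zbtb7b, moved the other way, and a link between these changes was not tested. It stood at 52.5, 56.6 and 48.7 CPM in control CD8aa IEL, against 119.7, 119.9 and 114 CPM in control IELp, with a log2 fold change of -0.93 (SE 0.08, edgeR adjusted p = 2.64e-06). Bcl6 stood at 18.4, 20.5 and 15.8 CPM in control CD8aa IEL, against 37.7, 33.2 and 49.0 CPM in control IELp, with a log2 fold change of -0.90 (SE 0.16, edgeR adjusted p = 5.51e-04). Zbtb10 stood at 2.64, 2.25 and 3.80 CPM in control CD8aa IEL, against 7.71, 8.47 and 7.07 CPM in control IELp, with a log2 fold change of -1.18 (SE 0.24, edgeR adjusted p = 0.00133). The 3 genes were thus lower by 1.86 to 2.27 times, with no library overlapping. Zbtb16, Zbtb17, Zbtb1 and Zbtb20 were not called, with log2 fold changes of -0.29, -0.11, -0.06 and 0.16.

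These last 4 values changed in unscaled limma, which differs from the edgeR fit in both scaling and test. With median-of-ratios size factors in edgeR none of the 4 was called or changed sign. TMM factors were 0.891 to 0.903 in control CD8aa IEL and 1.06 to 1.07 in both IELp groups. With log2(CPM + 1) left unscaled in limma, the median log2 fold change of all genes moved to -0.21 here, and to -0.10, 0.11 and 0.13 in the 3 comparisons of CD8aa cells that follow. Zbtb16, Zbtb17 and Zbtb1 were then called lower than in control IELp (-0.47, -0.34 and -0.29, limma adjusted p = 0.0336, 0.00696 and 0.00280), and Zbtb20 changed sign (-0.07). The 5 calls above were made both in edgeR with TMM and in unscaled limma. The summed level of 9 gut epithelium markers was 515 to 664 CPM in control CD8aa IEL and 66.6 to 74.8 CPM in control IELp. Most of it was Cdh1, at 397 CPM in control CD8aa IEL and 0.474 CPM in control IELp, and Epcam, at 146 CPM in control CD8aa IEL and 62.0 CPM in control IELp. Vil1, Krt8, Krt20 and Fabp2 averaged 4.83 to 8.50 CPM in control CD8aa IEL and at most 1.17 CPM in control IELp, and Muc2 was at 0 in both. The gamma delta T cell list (Trdc, Tcrg-C1, Tcrg-C4 and Sox13) summed to 939 to 1041 CPM in control CD8aa IEL and 158 to 206 CPM in control IELp. The rise lay in Tcrg-C1 (315 CPM in control CD8aa IEL and 51.8 CPM in control IELp) and Tcrg-C4 (655 and 99.9 CPM in the same groups). Trdc averaged 8.63 CPM in control CD8aa IEL and 20.9 CPM in control IELp, and Sox13 0.0410 and 3.39 CPM, both lower in control CD8aa IEL. The part of either list in the ZBTB changes was not tested.

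In the KO arm, CD8aa splenocytes differed from KO IELp at 7 of the 9 tested genes, with 2 higher and 5 lower, beside 45.0% of 14880 genes called (22.6% higher, 22.4% lower). Zbtb16 fell the most of them. It stood at 0.952, 0.953 and 0.744 CPM in KO CD8aa splenocytes, against 2.90, 5.60 and 4.38 CPM in KO IELp. The spleen libraries lay close together and below all precursors, with a log2 fold change of -2.15 (SE 0.34, edgeR adjusted p = 1.72e-04), or 4.44 times lower. Zbtb17 (log2 fold change -0.51), Zbtb1 (-0.40), Patz1 (-0.31) and Bcl6 (-0.68) fell by less, with edgeR adjusted p-values of 8.46e-05 to 0.00250. Zbtb7a rose by 0.54 on the log2 scale (SE 0.09, edgeR adjusted p = 2.55e-04), as far as reads over the whole gene show it. Zbtb20 was the other gene that rose, at 64.3, 71.2 and 82.8 CPM in KO CD8aa splenocytes and 61.7, 56.6 and 58.3 CPM in KO IELp, with a log2 fold change of 0.41 (SE 0.09, edgeR adjusted p = 0.00262). Zbtb7b, at 1.00, 1.11 and 1.19 CPM in KO CD8aa splenocytes, was not called against KO IELp (log2 fold change -0.69, 95% interval -1.53 to 0.14), and neither was Zbtb10 (-0.36, edgeR adjusted p = 0.0545, and 0.0241 without KO CD8aa splenocytes replicate 2). With unscaled log2(CPM + 1) Zbtb10 was called lower (limma adjusted p = 0.0146). B cell markers summed to 1210.0 to 1252 CPM in KO CD8aa splenocytes and 550.2 to 579 CPM in KO IELp. Myeloid and dendritic cell markers summed to 45.0 to 65.2 CPM in KO CD8aa splenocytes and 21.1 to 24.1 CPM in KO IELp, with Lyz2 at 12.3 CPM in KO CD8aa splenocytes and 0.0703 CPM in KO IELp. Invariant T cell genes summed to 289 to 337 CPM in KO CD8aa splenocytes and 215 to 233 CPM in KO IELp. Most of that sum was Slamf6, at 237 CPM in KO CD8aa splenocytes and 217 CPM in KO IELp. Klrb1c was at 74.7 and 2.69 CPM in the same groups. Lower in the spleen cells was the sum of double-positive thymocyte genes, at 53.2 to 57.4 CPM in KO CD8aa splenocytes and 127 to 138 CPM in KO IELp. Most of it was Cd1d1, at 54.7 CPM in KO CD8aa splenocytes and 109 CPM in KO IELp. Rag1, Rag2 and Ptcra were at 0 in KO CD8aa splenocytes and averaged 0.783 to 1.00 CPM in KO IELp. The gut epithelium sum was also lower, at 13.8 to 16.4 CPM in KO CD8aa splenocytes and 66.9 to 68.2 CPM in KO IELp. Most of that was Epcam, at 10.3 CPM in KO CD8aa splenocytes and 56.0 CPM in KO IELp. The part of these in the ZBTB changes was not tested.

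The CD8aa cells of both arms were then set side by side, KO splenocytes over control IEL. Of the 9 tested genes 3 were higher and 5 lower, beside 58.2% of 14875 genes called (29.1% higher, 29.2% lower). The lower genes were led by Zbtb16 and Zbtb7b. Zbtb16 stood at 0.952, 0.953 and 0.744 CPM in KO CD8aa splenocytes, against 4.30, 4.31 and 6.41 CPM in control CD8aa IEL, 6.07 times lower (log2 fold change -2.60, SE 0.30, edgeR adjusted p = 4.84e-05). Zbtb7b stood at 1.00, 1.11 and 1.19 CPM in KO CD8aa splenocytes, against 4.67, 5.60 and 4.62 CPM in control CD8aa IEL, 4.89 times lower (log2 fold change -2.29, SE 0.26, edgeR adjusted p = 4.45e-05). Both had no overlap and both kept their call under every alternative tried.

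The higher genes were Zbtb10, Patz1 and Zbtb20. Zbtb10 stood at 9.52, 11.9 and 9.83 CPM in KO CD8aa splenocytes, against 2.64, 2.25 and 3.80 CPM in control CD8aa IEL (log2 fold change 1.72, SE 0.23, edgeR adjusted p = 1.27e-04). Patz1 stood at 106, 91.1 and 101 CPM in KO CD8aa splenocytes, against 52.5, 56.6 and 48.7 CPM in control CD8aa IEL (log2 fold change 0.80, SE 0.09, edgeR adjusted p = 3.95e-05). Zbtb20 stood at 64.3, 71.2 and 82.8 CPM in KO CD8aa splenocytes, against 53.9, 50.1 and 57.5 CPM in control CD8aa IEL, a smaller difference (log2 fold change 0.31, edgeR adjusted p = 0.0262). Zbtb17 and Zbtb1 were lower by 0.28 and 0.24 on the log2 scale (edgeR adjusted p = 0.0192 and 0.0167), and Bcl6 was not called (0.23, 95% interval -0.14 to 0.61). The calls of Zbtb17 and Zbtb1 were absent with unscaled log2 CPM (limma adjusted p = 0.132 and 0.162). They also rested on single libraries: without KO CD8aa splenocytes replicate 3 the edgeR adjusted p was 0.0758 for Zbtb20, 0.0835 for Zbtb17 and 0.0822 for Zbtb1. Other libraries whose omission ended a call were KO CD8aa splenocytes replicate 2 and control CD8aa IEL replicate 1 (Zbtb20 and Zbtb17), control CD8aa IEL replicate 2 (Zbtb20 and Zbtb1) and control CD8aa IEL replicate 3 (Zbtb17), with edgeR adjusted p-values of 0.0513 to 0.103.

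B cell genes were higher in the spleen libraries, with a summed level over 5 markers of 1210.0 to 1252 CPM in KO CD8aa splenocytes and 457 to 653 CPM in control CD8aa IEL. Most of it was Ighm, at 1139 CPM in KO CD8aa splenocytes and 483 CPM in control CD8aa IEL, and Ms4a1 and Pax5 were at 0 in control CD8aa IEL. The gut epithelium sum was 13.8 to 16.4 CPM in KO CD8aa splenocytes and 515 to 664 CPM in control CD8aa IEL. The invariant T cell list summed to 289 to 337 CPM in KO CD8aa splenocytes and 33.5 to 46.7 CPM in control CD8aa IEL, the opposite direction to Zbtb16. Most of that sum was Slamf6 (237 CPM in KO CD8aa splenocytes and 14.5 CPM in control CD8aa IEL) and Klrb1c (74.7 and 23.1 CPM in the same groups). The part of these cell types in the ZBTB differences was not tested.

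**Figure D2:**
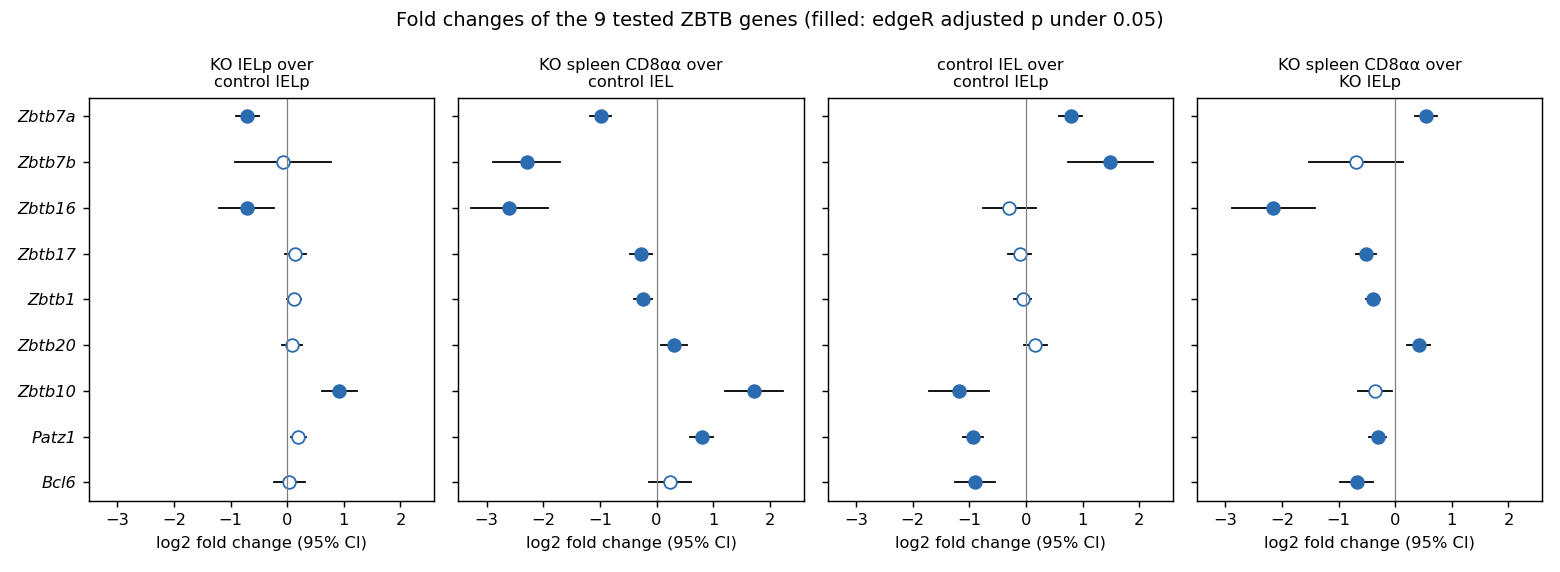
Log2 fold change (points) with its 95% interval (lines) of the 9 tested ZBTB genes in the 4 comparisons of groups, 1 panel each, where filled points had an edgeR adjusted p under 0.05. In the panel of KO IELp over control IELp 3 points are filled, Zbtb7a at -0.71, Zbtb16 at -0.72 and Zbtb10 at 0.92.

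The change from precursor to CD8aa cell was also compared between the arms in 1 fit of the 12 libraries, as KO CD8aa splenocytes minus KO IELp, less control CD8aa IEL minus control IELp. Of the 9 tested genes 2 differed towards higher and 4 towards lower values in the KO arm, beside 46.7% of 15757 genes called (24.2% higher, 22.5% lower). Zbtb7b, higher in the control arm's gut cells but not in the KO arm's spleen cells, had a difference of -2.21 (log2, SE 0.51, edgeR adjusted p = 0.00209). Zbtb16 had a difference of -1.88 (SE 0.38, edgeR adjusted p = 7.38e-04). The falls of Patz1 and Zbtb10 were smaller in the KO arm, with differences of 0.60 (SE 0.10, edgeR adjusted p = 1.83e-04) and 0.79 (SE 0.26, edgeR adjusted p = 0.0194). The call of Zbtb10 ended when control CD8aa IEL replicate 1 or 2 or KO CD8aa splenocytes replicate 2 was left out (edgeR adjusted p of 0.0511, 0.0579 and 0.0523).

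Zbtb17 and Zbtb1 had differences of -0.43 and -0.36 (edgeR adjusted p = 0.0119 and 0.00237), and the call of Zbtb17 was absent with unscaled log2(CPM + 1) (limma adjusted p = 0.0677). Zbtb7a itself, which rose in both arms, was not called (-0.28, 95% interval -0.55 to -0.01, edgeR adjusted p = 0.0879, and 0.0376 without control CD8aa IEL replicate 3), and neither were Zbtb20 nor Bcl6. With unscaled log2(CPM + 1) Zbtb20 was called, with a difference of 0.36 (limma adjusted p = 0.0303), against 0.23 in edgeR (adjusted p = 0.184). The end tissues of the arms differ, so genotype and tissue cannot be told apart in these values.

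**Figure D3:**
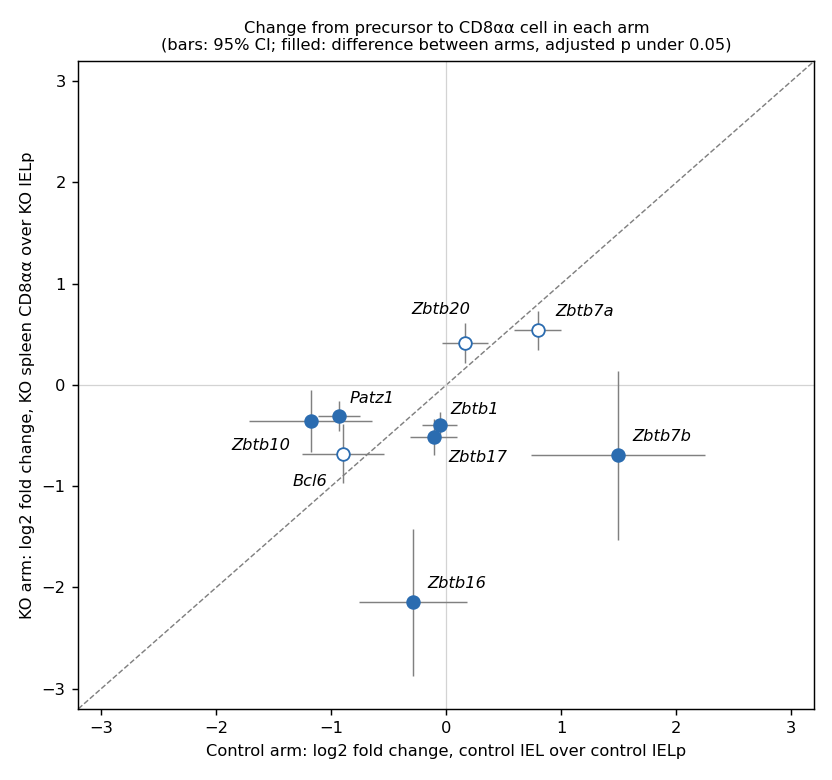
Log2 fold change of CD8aa cells over IELp in the KO arm (vertical) against the control arm (horizontal) for the 9 tested ZBTB genes, with 95% intervals and a dashed line of equal change. Filled points had an edgeR adjusted p under 0.05 for the difference between the arms, and Zbtb7b (1.49 in the control arm, -0.69 in the KO arm) and Zbtb16 (-0.29 and -2.15) lie farthest below the line.

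Between genes, levels were compared per kilobase of merged exons (GENCODE mouse release 21). Merged exons take in every annotated exon of a gene, 30.7 kb for Zbtb20 and 6.81 kb for Zbtb7a. Where the transcripts present are shorter, the level per kb is understated. In control IELp the order ran from Zbtb17 (22.4 ± 2.04 CPM per kb), Patz1 (19.9 ± 0.593) and Zbtb1 (13.7 ± 0.216) to Zbtb7a (11.1 ± 0.921) and Bcl6 (5.96 ± 1.22), with the means of Zbtb20, Zbtb16, Zbtb10, Zbtb7b and Zbtb32 between 1.84 and 0.271 CPM per kb. The ranges of Zbtb17 and Patz1 overlapped, as did those of Zbtb7b and Zbtb32. In KO IELp Zbtb7a stood at 6.69 ± 0.684 CPM per kb, overlapping Bcl6 at 6.01 ± 0.374. In control CD8aa IEL Zbtb7a was second with 16.4 ± 1.31 CPM per kb, overlapping Zbtb17 at 17.7 ± 1.22, while in KO CD8aa splenocytes it stood at 9.0 ± 0.313, below Zbtb1 at 10.3 ± 0.484 and above Bcl6 at 3.49 ± 0.691. Patz1 (16.8 ± 1.25) and Zbtb17 (15.8 ± 0.982) led in KO CD8aa splenocytes and overlapped each other, and Zbtb7b, Zbtb16 and Zbtb32 overlapped at the low end. Zbtb7b averaged 0.197 CPM per kb in KO CD8aa splenocytes, 0.887 in control CD8aa IEL, 0.344 in KO IELp and 0.365 in control IELp, and was among the 3 lowest of the 10 genes in each group.

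A wider list of 40 further ZBTB family genes had 39 in the table and 34 tested. Zbtb7c, the remaining gene of the Zbtb7 name, averaged 0 CPM in each group and was not tested. This list and those that follow were chosen with earlier results of these data known. In KO IELp 3 rose, 1 fell and 30 were not called, beside 6.48% of all genes higher and 6.58% lower, so the count is near that background. The median log2 fold change was 0.09, against -0.01 over all genes tested. Hic2 rose to 13.8 ± 0.727 CPM in KO IELp, against 6.92 ± 2.42 CPM in control IELp (log2 fold change 1.01, SE 0.21, edgeR adjusted p = 0.00501). Its paralog Hic1, known as a target of retinoic acid in gut lymphocytes, fell to 4.62 ± 0.668 CPM in KO IELp, against 8.58 ± 1.89 CPM in control IELp (-0.87, SE 0.21, edgeR adjusted p = 0.0128). Zfp131 (0.34) and Zbtb49 (0.38) made up the rest, with edgeR adjusted p-values of 0.0176 and 0.0455. Apart from Hic2, each of these calls ended when single libraries were left out: Hic1 without control IELp replicate 1 or KO IELp replicate 3 (edgeR adjusted p = 0.0530 and 0.0649), Zfp131 without 3 of the 6 libraries (0.0581 to 0.0780) and Zbtb49 without 5 of the 6 (0.0569 to 0.157), and Zbtb49 was not called by limma (adjusted p = 0.0642) or with a replicate block (edgeR adjusted p = 0.0844).

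In control CD8aa IEL 15 of the 34 genes were higher than in control IELp, 5 were lower and 14 were not called, beside 31.9% of all genes higher and 32.9% lower. The median was 0.28, against -0.01 over all genes tested. Hic1 stood at 236 ± 23.4 CPM in control CD8aa IEL and 8.58 ± 1.89 CPM in control IELp (log2 fold change 5.02, SE 0.15, edgeR adjusted p = 4.91e-10). Zfp652 (2.82), Zbtb42 (3.00) and Zbtb38 (1.36) were the other 3 with the smallest adjusted p. In KO CD8aa splenocytes over KO IELp 9 rose and 5 fell, beside 22.6% and 22.4% of all genes, with a median of 0.03. Hic1 reached 20.8 ± 0.685 CPM in KO CD8aa splenocytes and 4.62 ± 0.668 CPM in KO IELp (2.28, SE 0.15, edgeR adjusted p = 5.92e-08), with smaller rises of Zfp652 (0.74), Zbtb25 (0.68) and Zbtb37 (1.03).

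Between the CD8aa cells, 6 family genes were higher and 12 lower in KO CD8aa splenocytes than in control CD8aa IEL, beside 29.1% of all genes higher and 29.2% lower, with a median of -0.04. The count is near that background. The lower ones included Hic1 (-3.63), Zfp652 (-1.99), Zbtb38 (-1.53) and Zbtb42 (-2.53), the same 4 that were named in the control arm, a comparison with which this one shares the control CD8aa IEL libraries. The difference between the arms was called for 12 of the 34, with 2 higher and 10 lower, fewer called than the 46.7% of all genes (24.2% higher, 22.5% lower). The median was -0.13, against 0.02 over all genes tested. Summed over the wider family, the libraries held 1075 ± 23.9 CPM in KO CD8aa splenocytes, 1675 ± 24.4 CPM in control CD8aa IEL, 1060 ± 16.4 CPM in KO IELp and 1022 ± 24.1 CPM in control IELp (SD, n = 3 each), with no test made. Most of the gap between control CD8aa IEL and control IELp lay in 3 genes, Zfp652 (299 CPM in control CD8aa IEL and 49.6 CPM in control IELp), Hic1 (236 and 8.58 CPM in the same groups) and Zbtb38 (233 and 106 CPM).

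**Figure D4:**
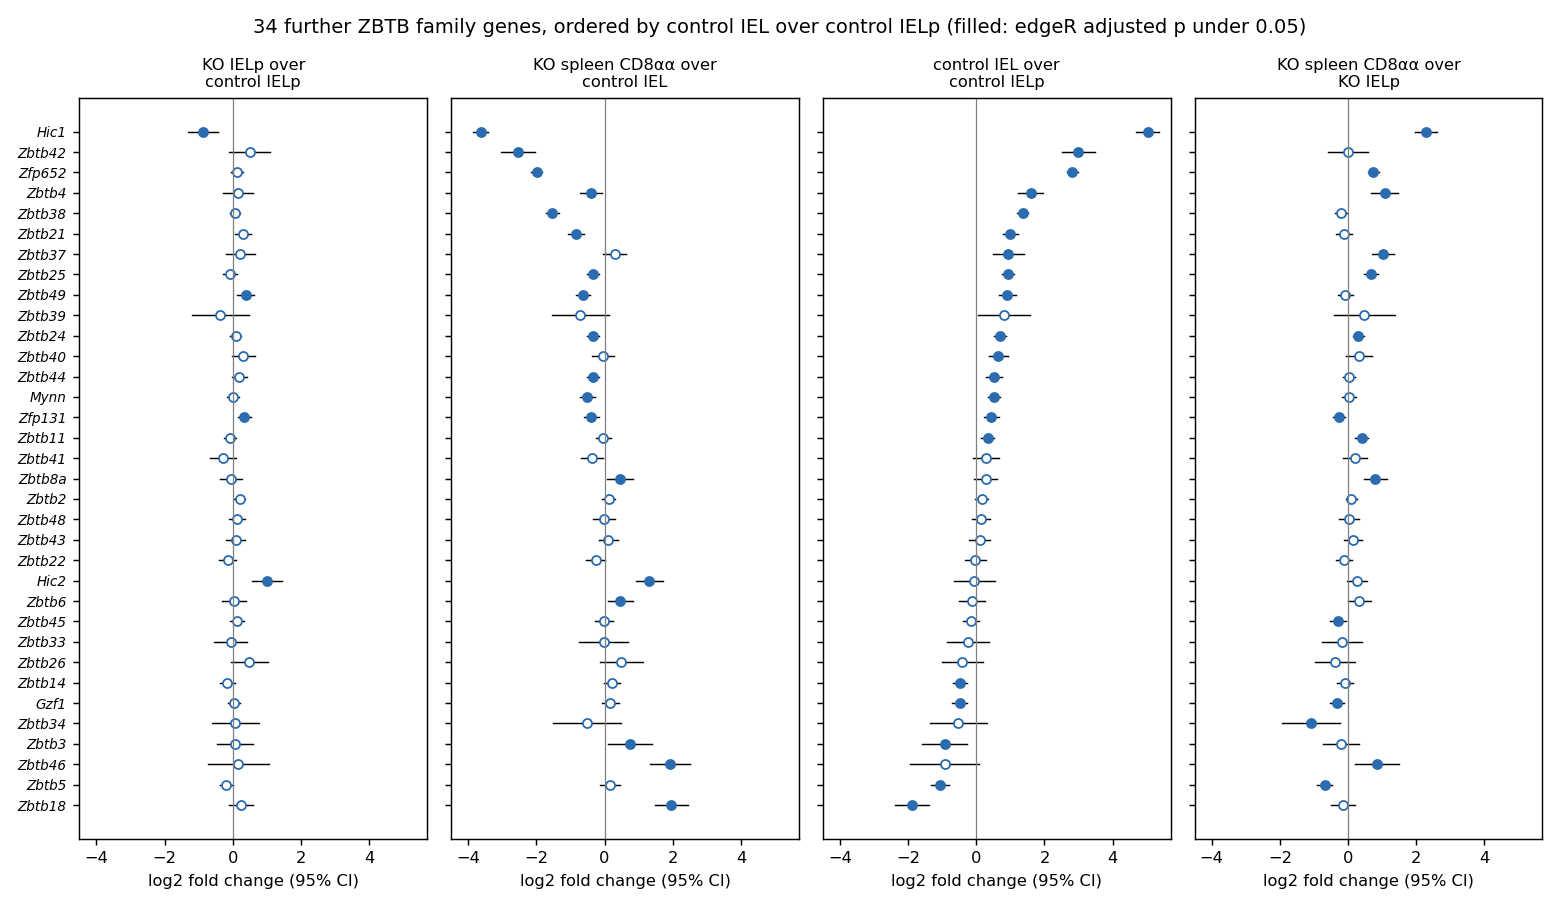
Log2 fold change (points) with 95% intervals (lines) of the 34 tested genes of the wider ZBTB family in the 4 comparisons of groups, in the order of their change between control CD8aa IEL and control IELp, where filled points had an edgeR adjusted p under 0.05. Hic1 heads the list at 5.02 in control CD8aa IEL over control IELp and is at -3.63 in KO CD8aa splenocytes over control CD8aa IEL.

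Of 25 corepressors and BTB cofactors, all tested, 5 were higher in KO IELp than in control IELp and 20 were not called, beside 6.48% of all genes higher and 6.58% lower, with a median of 0.12 over the list. No test was made of the list as a whole. The 4 with the smallest adjusted p were Mbd3 (log2 fold change 0.38), Gatad2a (0.23), both of the NuRD repressor complex, Hdac7 (0.30), a class IIa histone deacetylase of thymocytes, and Bcorl1 (1.03, 4.30 CPM in KO IELp and 2.14 CPM in control IELp). Their edgeR adjusted p-values ran from 8.81e-04 for Mbd3 to 0.0216 for Bcorl1, and that of Bcorl1 rose to between 0.0550 and 0.0922 when any of 5 single libraries was left out. In control CD8aa IEL against control IELp 5 rose and 14 fell (median -0.39), in KO CD8aa splenocytes against KO IELp 7 rose and 8 fell (median -0.10), and in KO CD8aa splenocytes against control CD8aa IEL 14 were higher and 4 lower (median 0.53). Over all genes, 64.8%, 45.0% and 58.2% were called in these 3 comparisons. Mbd2, which reads methylated DNA, stood at 696 ± 20.5 CPM in control CD8aa IEL and 137 ± 11.7 CPM in control IELp (2.57, SE 0.08, edgeR adjusted p = 4.68e-10). Hdac7 stood at 259 ± 6.34 CPM in KO CD8aa splenocytes and 66.6 ± 6.28 CPM in control CD8aa IEL (1.84, SE 0.08, edgeR adjusted p = 4.06e-08).

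Among 11 factors known around Zbtb7b in CD4 and CD8 lineage choice, 3 rose and 1 fell in KO IELp, beside 13.1% of all genes called. Satb1 rose by 0.29, Bcl11b by 0.31 and Runx3, the CD8 lineage factor that represses Zbtb7b, by 0.24 on the log2 scale, while Lef1 fell by 0.29 (edgeR adjusted p = 7.56e-04, 0.0197, 0.0230 and 2.83e-04). The calls of Bcl11b and Runx3 were lost in 1 fit of all 12 libraries (edgeR adjusted p = 0.0518 and 0.0558) and when single libraries were left out, Bcl11b without control IELp replicate 2 or KO IELp replicate 1 or 2 (0.0511 to 0.102), and Runx3 without replicate 1 or 2 of either group (0.0508 to 0.124). In control CD8aa IEL over control IELp 2 rose and 8 fell, beside 64.8% of all genes called, with Satb1 at -4.51, Lef1 at -5.55, Tcf7 at -2.96 and Myb at -7.15. In KO CD8aa splenocytes over KO IELp 4 rose and 6 fell, beside 45.0% of all genes called, with Tox at -1.11, Bcl11b at 1.10, Cbfb at -0.53 and Tcf7 at -0.31. KO CD8aa splenocytes over control CD8aa IEL had 7 higher and 2 lower, beside 58.2% of all genes called, and Tcf7 stood at 1255 ± 25.8 CPM in KO CD8aa splenocytes and 180.4 ± 6.99 CPM in control CD8aa IEL.

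Of 14 factors known around Bcl6 and Zbtb16, 13 were tested in KO IELp, where 2 rose and 5 fell, beside 6.48% of all genes higher and 6.58% lower. Id3, an inhibitor of E proteins, fell to 534 ± 20.6 CPM in KO IELp, against 737 ± 19.7 CPM in control IELp (log2 fold change -0.44, SE 0.05, edgeR adjusted p = 1.09e-05). Batf (-0.90), Il21r (-0.30) and Irf4 (-1.75), which act in effector and follicular helper T cells, were also lower, with edgeR adjusted p-values of 9.49e-04 and below except 0.00209 for Irf4. The call of Irf4 was absent in 1 fit of all 12 libraries (edgeR adjusted p = 0.0605). Prdm1, which encodes BLIMP1, the factor that BCL6 represses and is repressed by, had 0 counts in both IELp groups. It reached 195 ± 20.4 CPM in control CD8aa IEL, at least 2917-fold higher than the floor of 3 counts over the 3 control IELp libraries, and 0.673 ± 0.637 CPM in KO CD8aa splenocytes. Egr2 stood at 7.75 ± 0.352 CPM in control CD8aa IEL and 163 ± 7.43 CPM in control IELp, and at 31.1 ± 1.02 CPM in KO CD8aa splenocytes and 147 ± 9.62 CPM in KO IELp (log2 fold changes -4.16 and -2.13, edgeR adjusted p = 6.58e-11 and 1.12e-10).

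Among 11 partners and targets of MIZ-1 (Zbtb17), 8 were tested in KO IELp and 1 was called, a share near the 13.1% of all genes. This was Gfi1, a repressor that binds MIZ-1, at 84.1 ± 4.26 CPM in KO IELp and 58.8 ± 6.73 CPM in control IELp (log2 fold change 0.54, SE 0.09, edgeR adjusted p = 9.11e-04). Gfi1 was also 1.62 higher on the log2 scale in control CD8aa IEL than in control IELp and 0.39 lower in KO CD8aa splenocytes than in KO IELp (edgeR adjusted p = 7.54e-08 and 0.00105). Myc, the oncogene that represses through MIZ-1, stood at 196 ± 6.44 CPM in KO CD8aa splenocytes and 86.3 ± 19.0 CPM in control CD8aa IEL (1.06, SE 0.13, edgeR adjusted p = 6.62e-05).

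Genes whose pattern over the 12 libraries was most like that of Zbtb7a were found by the root mean square difference of centred log2(CPM + 1), among 8840 genes with a mean of at least 10 CPM. They were Wls (0.144), Usb1 (0.147), Fbxl17 (0.158), Nudt18 (0.166) and Nfkbil1 (0.176). Wls averaged 146 CPM in KO CD8aa splenocytes, 269 CPM in control CD8aa IEL, 109 CPM in KO IELp and 155 CPM in control IELp, the same order of groups as Zbtb7a. No member was among the 5 genes nearest to any other member. Zbtb7b, Zbtb16, Zbtb32 and Zbtb10 averaged under 10 CPM, so they were not candidates and could not have been listed.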

How the data were processed

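RNA of sorted mouse T cells was measured in 12 libraries. Per the labels' protocols, RNA from RNeasy Plus Micro columns went through SMARTer Ultra Low Input and Nextera XT kits and was read as paired 76 bp reads. Trimmomatic, bcl2fastq 2.17, HTSeq, STAR and DESeq2 are the programs and mm10 the build named per the submitters' processing notes. Neither strand setting nor annotation is given in the sources used here, so reads of overlapping genes (Patz1 has such a neighbour) cannot be told apart. The authors deposited raw counts per gene symbol (48663 gene rows and 5 summary rows) and a table named FPM, whose deposited values equal CPM of the gene total. Summary rows stayed out of all totals and tests, and reads in no gene made up 41.5% to 45.5% of a library's rows summed, reads mapped to several places 13.1% to 18.8%.

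Deposited counts were tested in edgeR 4.0.16 (R 4.3.3) by its quasi-likelihood test, as 2-sided, within the 6 libraries of a pair of groups, or all 12 for the difference between arms. Genes were filtered with filterByExpr, libraries scaled by TMM, and p-values adjusted by Benjamini-Hochberg over all genes tested, at 0.05. SEs are the log2 fold change over the square root of F. Printed CPM carry no TMM factor. Alternatives were median-of-ratios size factors, DESeq2 1.42.0, no filter, a replicate block, 1 fit of all libraries, limma 3.58.1 on log2(CPM + 1) and log2(CPM + 0.1), and each library left out. The fits were tested on simulated data. The members and the 5 lists were chosen with earlier results of these data known. All members were named, with up to 4 called genes of the smallest adjusted p from each list and comparison, and the 5 genes nearest to Zbtb7a. Same-numbered libraries did not deviate together (r of -0.03 to 0.06 over genes), so numbers were not used as pairs. Promoter windows are from RefSeq, and exon lengths and gene positions from GENCODE mouse release 21. Symbols that read as dates (27) were not named. A marker gene of the B cell list is not reported here and was left out of its sums.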

Additional observations from a re-analysis of the deposited data

Results flagged for a closer look

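For 6 ZBTB genes the change from IELp to CD8aa cells differed between the KO arm (to spleen) and the control arm (to gut), by the test of the difference itself in 1 edgeR fit of the 12 libraries. The log2 difference, KO arm minus control arm, was -2.21 for Zbtb7b, -1.88 for Zbtb16, -0.43 for Zbtb17, -0.36 for Zbtb1, 0.79 for Zbtb10 and 0.60 for Patz1. Such differences were called for 46.7% of all genes tested, and the arms end in different tissues, so genotype and tissue cannot be told apart. No group held enough libraries for a test of single outlying ones.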

How the results depend on the processing

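Of 630 values of single members under alternatives, 581 kept direction and side of the threshold, 28 lost the call, 13 gained it and 8 changed sign. The sign changes concerned values that were not called. For KO IELp over control IELp, leaving out 1 library gave -0.43 to 0.18 for Zbtb7b (above 0 without control IELp replicate 1 or 2 or KO IELp replicate 1 or 3), and -0.081 to 0.21 for Bcl6 (below 0 without control IELp replicate 2 or KO IELp replicate 3). For control CD8aa IEL over control IELp, Zbtb20 gave -0.067 and -0.068 with limma at a pseudocount of 1 and of 0.1, with libraries unscaled.

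In KO IELp DESeq2 called 2 members higher (Zbtb10 and Patz1) in place of 1, beside 1077 of all 14629 genes in place of 948. Only Zbtb7a was called lower (1 member) with median-of-ratios size factors, DESeq2, the replicate block and 1 fit of all 12 libraries, and 1 to 2 when a library was left out. Over all genes, those 4 settings called 714 to 980 of 14629 to 15757 lower, and the fits without 1 library 635 to 937 of 14888 to 15048. With limma 6 members were lower in control CD8aa IEL than in control IELp, at either pseudocount, and 3 were lower in KO CD8aa splenocytes than in control CD8aa IEL. At a pseudocount of 1, limma called 6545 of all 14878 genes lower in the first of these comparisons, against 4897 in edgeR. In the second it called 3651 of 14875 lower, against 4337 in edgeR. Leaving out libraries gave 3 to 5 members lower in KO CD8aa splenocytes than in control CD8aa IEL, beside 3854 to 4330 of 15104 to 15471 genes. It gave 1 to 2 members higher in the difference between arms, beside 3539 to 3988 of 16157 to 16269 genes. Unscaled limma also moved the split of all called genes: 34.7% were higher in control CD8aa IEL than in control IELp (49.2% in edgeR), 35.7% against 50.3% for KO CD8aa splenocytes over KO IELp, 59.4% against 49.9% for KO CD8aa splenocytes over control CD8aa IEL, and 61.4% against 51.8% for the difference between arms. Limma here differs in both scaling and test, and the cause of each change was not tested. The replicate block changed no other call of a member. For genes named from the lists, 1333 of 1361 values kept their call and 28 lost it, all in KO IELp over control IELp. These genes had been picked for the smallest adjusted p in the same data, a choice that itself favours keeping the call.

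Depth limits Zbtb7b, Zbtb16 and Zbtb32 most, with 15 to 326 counts in a group. With 3 libraries a group, an exact permutation test of 1 gene cannot go below 0.1, so the calls lean on the spread shared over genes.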
